A study of Mus musculus with 6 samples.

Results

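Cytosolic sulfotransferases were followed in 6 mouse liver samples, each hybridised to 1 single-colour Agilent array. The set holds 10 listed genes, namely Sult1a1, Sult1b1, Sult1c2, Sult1d1, Sult1e1, Sult2a1, Sult2a6, Sult2b1, Sult3a1 and Sult5a1, out of 18342 genes named on the array. Probes were assigned by accession. A probe matched for 8 of the 10, and these 8 were well above background on at least 2 arrays and were tested among 15381 genes. Sult2a1 and Sult3a1 have no value here. The set was chosen for the large difference of Sult2a6 between inflamed and normal FCR liver, so the members were chosen by that measured value and the contrast is described below without a test for any gene. A further 9 Sult genes outside the list had a named probe and 7 of them were tested.

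All mice were on a BL6 background and carried the Fah_del_tm1Mgo allele, so that every group lacked intact fumarylacetoacetate hydrolase, which completes the breakdown of tyrosine. FCR mice carried in addition Rag2_del_tm1Fwa and the common gamma chain deletion tm1Wjl, alleles that remove mature T, B and NK cells. NTBC, a drug that blocks tyrosine breakdown upstream of Fah, was given in the drinking water at 7.5 µg/ml as the full dose. The groups were healthy Fah liver on continuous NTBC (n = 1), Fah tumour (n = 2), normal FCR liver on continuous NTBC (n = 1) and inflamed FCR liver (n = 2). In the tumour and the inflamed group, array 1 came from the regimen named off and array 2 from the regimen named 2xoff/on. Both regimens involved repeated NTBC withdrawal and return, and the labels do not say in which phase each of these samples was taken. In the Fah mice tumour tissue and withdrawal coincide, so the part of each cannot be told apart. Age and sex of the mice are not given in the sources used here. Whether the paired arrays are separate mice is not stated, so p-values measure the spread between these samples. In the 6-array fit that spread comes from the tumour pair and the inflamed pair, whose arrays also differ in regimen and slide.

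Cytosolic sulfotransferases move a sulfonate group from the donor PAPS onto hydroxyl or amino groups of steroids, bile acids, thyroid hormones, catecholamines, phenols and drugs. The sulfated products are more water soluble and mostly leave the cell through efflux transporters. In mouse liver, family 1 enzymes act mainly on phenols and estrogens and family 2 enzymes on hydroxysteroids and bile acids, and several members are known to differ between the sexes. The Sult2a genes are related copies that lie in 1 region of a chromosome.

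The promoters of the Sult2a genes are shown because the largest differences among the Sult genes, upward and downward, fell to this group. RefSeq promoter windows on GRCm38.p6, from 250 bases before to 50 bases after the annotated start, were available for 9 of the 10 listed members, all but Sult2a1, and for 5 Sult2a genes. Each line gives the stretch of about 100 bases that aligned with the Sult2a6 stretch, 5′ to 3′ on the strand of the gene. It lies wholly before the annotated start. Capitals mark the 9 letters GTCATGAAC, the core of a pair of nuclear receptor elements that face each other.
Sult2a6, chr7:14254986-14255085, minus strand: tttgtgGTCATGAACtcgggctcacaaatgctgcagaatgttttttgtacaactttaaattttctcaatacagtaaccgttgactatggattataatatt
Sult2a3, chr7:14123142-14123242, minus strand: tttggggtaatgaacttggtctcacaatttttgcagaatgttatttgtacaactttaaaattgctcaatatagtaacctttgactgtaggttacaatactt
Sult2a4, chr7:13989739-13989838, minus strand: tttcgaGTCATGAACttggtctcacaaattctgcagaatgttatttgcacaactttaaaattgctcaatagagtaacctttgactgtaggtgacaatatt
Sult2a5, chr7:13623796-13623895, plus strand: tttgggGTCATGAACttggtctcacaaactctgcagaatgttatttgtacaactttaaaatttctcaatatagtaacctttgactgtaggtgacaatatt
The Sult2a5 stretch was identical to that of Sult2a6 at 86 of 100 positions, the Sult2a3 stretch at 84 and the Sult2a4 stretch at 83. The best match in either window of Sult2a8 was identical at 63 positions, within the 56 to 69 found for the 14 windows of Sult genes outside the Sult2a group. GTCATGAAC, searched on both strands, was present in the windows of Sult2a4, Sult2a5 and Sult2a6 and in 0.164% of all 32851 windows. It was not in those of Sult2a3 and Sult2a8. AGGTCA, a shorter nuclear receptor motif searched in the same way, was in windows of Sult1b1, Sult1e1 and Sult2a8 and in 16.3% of all windows. GTCATGAAC was chosen after the sequences were seen, the 4 similar stretches share ancestry, and a match is a description of letters.

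The level of each gene is given as the log2 processed signal relative to the 75th percentile of its array, written below as log2 level. All 10 hepatocyte markers with a probe were well above background on every array. Their summed log2 level was 11.86 and 11.61 in healthy and normal liver and 10.47 to 10.78 in the other 4 samples. In bulk tissue, fewer cells of a type and less RNA per cell cannot be told apart. Between 60.5% and 74.5% of spots were well above background and no spot was saturated. Il2rg was detected above background on the 3 Fah arrays and on none of the 3 FCR arrays. Rag2 was above background on no array, and a Fah probe was above background on all 6; whether these probes lie within the deleted parts was not examined.

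**Figure D1:**
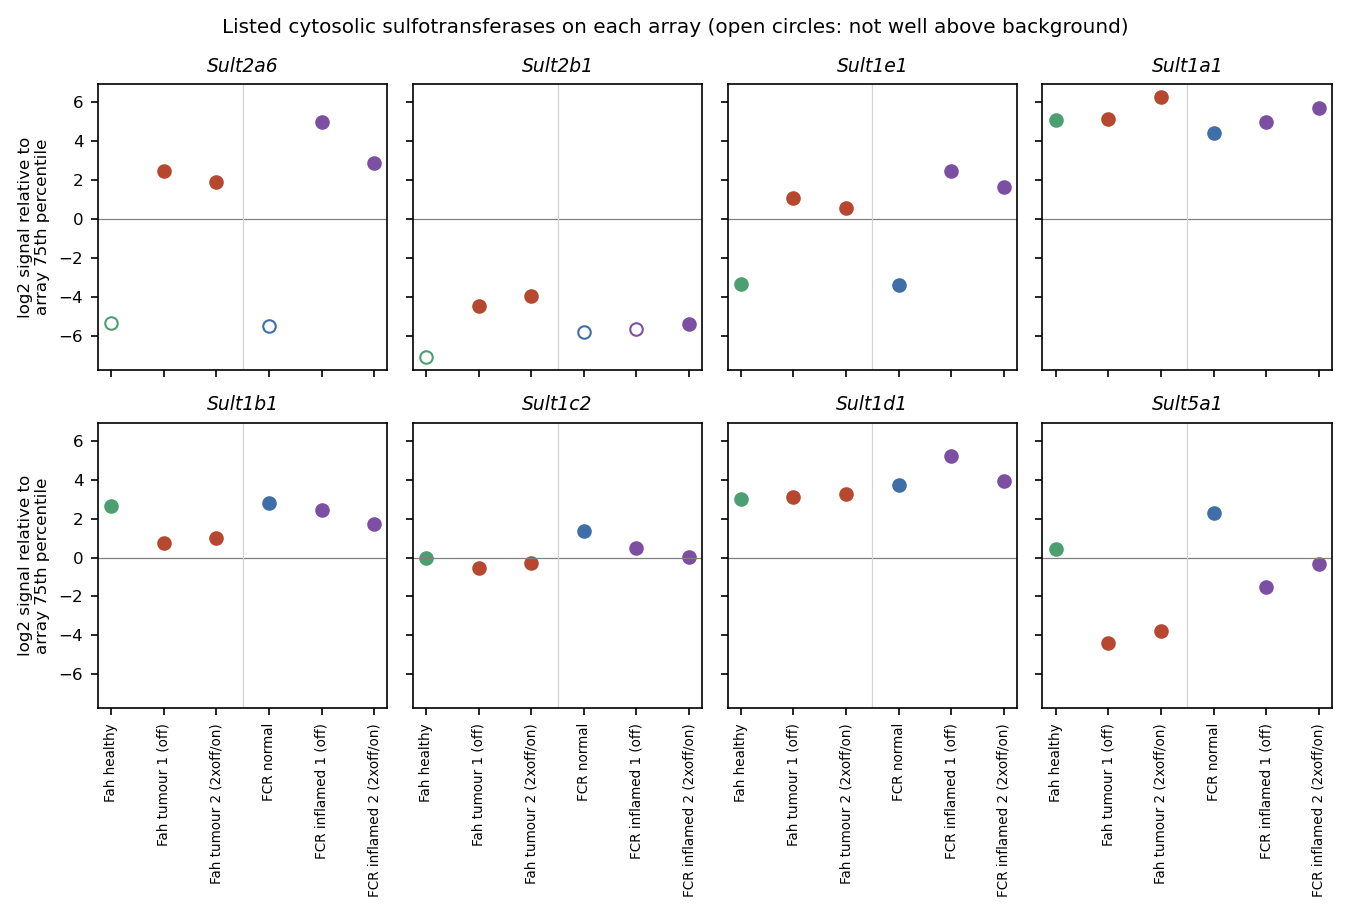
Log2 level of the 8 measured members (vertical axis, log2 signal minus the 75th percentile of that array) on each of the 6 arrays (horizontal axis), with Fah arrays left and FCR arrays right of the grey line. Sult2a6 and Sult1e1 were low on both arrays of continuous NTBC and high on the other 4, Sult5a1 showed the opposite order, and open circles mark arrays on which a probe was not well above background.

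Sult2a6, a hydroxysteroid sulfotransferase of the Sult2a group, was at -5.49 in normal FCR liver, where its probe was not well above background, and at 5.0 and 2.88 in inflamed FCR liver. In healthy Fah liver it was at -5.35, again not well above background, and in the Fah tumours at 2.48 and 1.91. It was therefore measured on all 4 arrays of withdrawal regimens and on neither array of continuous NTBC. The difference between inflamed and normal FCR liver, by which the set was selected, was 9.44 on the log2 scale, or at least 693-fold. It was 6.36 under another background correction and 7.38 with the authors' values, so the fold holds for the main processing only. A fold given as "at least" sets the mean of the brighter group against the lowest signal well above background in the dimmer group, or against the probe's own signal where that was higher.

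In Fah tumour against healthy Fah liver, a contrast the choice did not use, Sult2a6 and Sult1e1 rose, Sult5a1 fell, and the other 5 measured members did not pass. Of the 8 members tested, 2 passed higher and 1 lower by limma's moderated test with Benjamini-Hochberg adjustment at 0.05, where 5.05% of all genes tested passed, 3.91% higher and 1.13% lower. The median difference of the 8 was 0.43, beside -0.08 over all genes. Values of all 8 did not overlap between the groups, as was so for 78.5% of all genes with 2 arrays against 1. The healthy group held 1 array, which was assumed to vary like the other groups. Sult2a6 reached the 2 arrays above background needed for testing through the withdrawal arrays alone, so its place in this count is no separate support. Hepatocyte markers had a median difference of -1.35, lower for 10 of 10, and markers of cholangiocytes and progenitors one of 3.62, higher for 9 of 10. Their part in these results was not tested.

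Sult2a6 was 7.55 ± 0.88 (SE) higher in tumour on the log2 scale, at least 159-fold in the main processing (limma adjusted p = 0.00434). The probe was not well above background in healthy liver, and it met the filter for testing through the withdrawal arrays alone. The test therefore sets tumour against background signal on 1 array and is no separate support for the difference. The difference was 4.62 under another background correction and 5.94 with the authors' values. Both tumour arrays exceeded the healthy array by more than 7 on this scale, by 7.83 and 7.26. With values floored at a common level this p was 0.137, and no gene of the array passed in that setting.

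Sult1e1, the estrogen sulfotransferase, was at -3.33 in healthy Fah liver and at 1.09 and 0.55 in tumour. It was at -3.40 in normal FCR liver and at 2.49 and 1.64 in inflamed FCR liver. The 2 livers on continuous NTBC were thus nearly equal and low, and the tumours and inflamed livers of the withdrawal regimens all lay higher. In tumour it rose by 4.15 ± 0.67 (SE) on the log2 scale, 17.7-fold (limma adjusted p = 0.0134, and 0.137 with floored values). In inflamed against normal FCR liver the difference was 5.47, or 44.3-fold, given without a test. It was 4.06 under another background correction and 4.57 with the authors' values, so this fold holds for the main processing only.

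Sult5a1, a member whose substrates are little known, was the member that fell. It was at 0.45 in healthy Fah liver and at -4.38 and -3.80 in tumour. In FCR mice it was at 2.29 in normal liver and at -1.51 and -0.34 in inflamed liver. Tumours held the lowest values and normal FCR liver the highest. In tumour it fell by 4.53 ± 0.74 (SE) on the log2 scale, 23.2-fold lower (limma adjusted p = 0.0137, and 0.152 with floored values), and the untested difference between inflamed and normal FCR liver was -3.21.

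Sult1b1, which sulfates thyroid hormones and phenols, was at 2.64 in healthy Fah liver, at 0.75 and 1.00 in tumour, at 2.81 in normal FCR liver and at 2.41 and 1.70 in inflamed FCR liver. Its tumour values were the lowest of the 6. The difference between tumour and healthy liver was -1.77 ± 0.61 (SE; limma adjusted p = 0.147), and it passed without either inflamed array (limma adjusted p = 0.0276 without array 1 and 0.0214 without array 2, fits in which 13.6% and 15.2% of all genes passed). A second Sult1b1 probe stood lower in tumour by a larger amount, -2.77 ± 0.75 (SE), when each probe was tested on its own (limma adjusted p = 0.144).

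Sult2b1, a cholesterol and pregnenolone sulfotransferase known from skin, was well above background on only 3 arrays, at -4.47 and -3.92 in the tumours and at -5.37 in inflamed array 2. It was not well above background in healthy Fah liver (-7.08), normal FCR liver (-5.81) and inflamed array 1 (-5.63). The tumour values were at least 1.90-fold above the healthy array (log2 difference 2.88 ± 0.88 SE, limma adjusted p = 0.106), and the sign of the difference turned under another background correction. It passed with slide as a block (adjusted p = 0.0198, where 16.3% of all genes passed) and without an intensity trend (adjusted p = 0.0491). Of 16 squamous epithelium markers, 6 and 7 were above background in healthy and normal liver, 8 in each tumour and 9 in each inflamed liver, with a summed log2 level of 0.84 and 0.92, then 3.27 and 3.98, then 4.41 and 4.34. Krt6a, Krt15, Trp63 and Dsg3, among the defining markers, were above background on no array, and their part in the Sult2b1 values was not tested.

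Sult1a1, the main phenol sulfotransferase, was at 5.08 in healthy Fah liver and 5.17 and 6.25 in tumour, and at 4.43 in normal and 5.0 and 5.72 in inflamed FCR liver. Sult1d1, which acts on catecholamines, was at 2.99 in healthy liver, 3.12 and 3.29 in tumour, 3.72 in normal and 5.23 and 3.95 in inflamed FCR liver. Sult1c2, a phenol sulfotransferase, was at -0.04 in healthy liver, -0.56 and -0.27 in tumour, 1.36 in normal and 0.47 and 0.03 in inflamed FCR liver. These 3 genes were above background on every array, and the Sult1c2 value was highest in normal FCR liver. In tumour against healthy liver Sult1a1 differed by 0.63 ± 0.65, Sult1c2 by -0.37 ± 0.62 and Sult1d1 by 0.22 ± 0.66 (log2, SE), differences no larger than their errors (limma adjusted p = 0.720, 0.847 and 0.927). For Sult1d1 the sign turned to -0.16 when arrays were scaled to their median. In inflamed against normal FCR liver the untested differences were 0.93, -1.11 and 0.87 for Sult1a1, Sult1c2 and Sult1d1, and 0.31 for Sult2b1 and -0.75 for Sult1b1. The second Sult1b1 probe stood at -2.02 there, and the mean of the Sult1b1 probes gave -1.38, so the size depends on the probe.

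**Figure D2:**
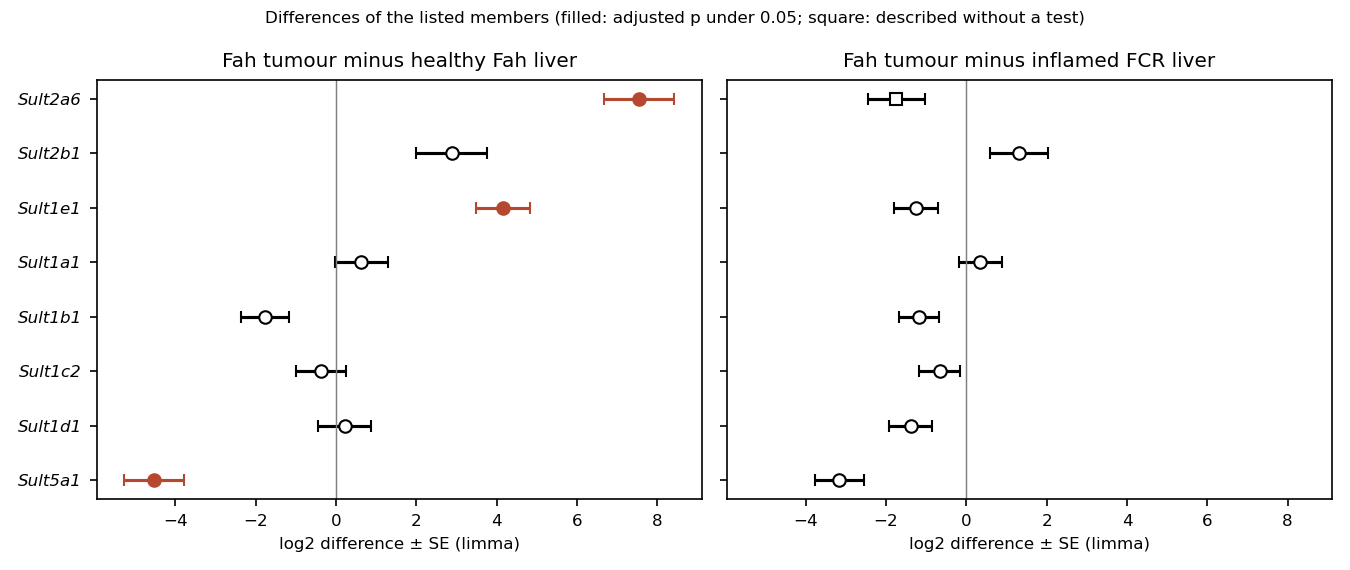
Log2 differences with standard errors from limma (horizontal axes) for the 8 measured members (vertical axis), for Fah tumour minus healthy Fah liver and Fah tumour minus inflamed FCR liver. In the first, Sult2a6, Sult1e1 and Sult5a1 are filled, having an adjusted p under 0.05, and in the second no member is. The square marks Sult2a6, given there without a test.

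In Fah tumour against inflamed FCR liver, Sult5a1 stood lowest relative to FCR and no member passed the test. Of the 7 members tested, 0 passed by limma and 3 had an unadjusted p under 0.05, namely Sult5a1, Sult1d1 and Sult1b1. Among all genes 0.215% passed, and 1407 of 15381 had an unadjusted p under 0.05. Groups did not overlap for 7 of the 8 measured members, Sult2a6 included, and for 39.9% of all genes. Sult1a1 was the member whose values overlapped. The median difference of the 8 was -1.21, beside -0.13 over all genes.

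Sult5a1 was 3.16 ± 0.61 (SE) lower in tumour on the log2 scale, and 8.95-fold lower as a ratio (limma adjusted p = 0.0971). It passed in 6 of 16 alternative settings, whose adjusted p ranged from 3.15e-07 to 0.390. The smallest came with slide as a block, where the difference stayed at -3.16 with an SE of 0.53. That fit has fewer residual degrees of freedom, and its smaller p does not come from a larger difference. Tumour and inflamed arrays of the same number share regimen and slide, and the call changed with slide as a block (adjusted p = 3.15e-07, where 6.31% of all genes passed) and with regimen as a block (-2.72, adjusted p = 0.0380, 0.312% of genes). It also changed without inflamed array 1 (-3.75, adjusted p = 0.0387, 0.243% of genes) and without inflamed array 2 (-2.58, adjusted p = 0.0355, 4.63% of genes). Sult1d1 differed by -1.39 ± 0.54 (adjusted p = 0.469), and passed without inflamed array 2 (-2.03, adjusted p = 0.0259). Sult1e1 differed by -1.24 ± 0.55 (adjusted p = 0.548) and Sult1b1 by -1.18 ± 0.50 (adjusted p = 0.519). Sult1c2 differed by -0.67, Sult2b1 by 1.30 and Sult1a1 by 0.35, with adjusted p of 0.782, 0.671 and 0.899. Sult2a6 was 1.75 lower in tumour, a value given without a test because the inflamed arrays chose it.

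The series' design text sets both tumours against normal FCR liver and inflamed array 2 together. Of 7 members tested in that 4-array comparison 0 passed by limma (0% of 15175 genes, with 1755 genes at an unadjusted p under 0.05), and 2 members, Sult5a1 and Sult1b1, had an unadjusted p under 0.05. Sult5a1 differed by -5.06 ± 0.93 (limma adjusted p = 0.295). Sult1e1 differed by 1.70 ± 1.57 (limma adjusted p = 0.762), and the FCR pair held a low normal and a high inflamed value. Without normal FCR liver its difference was -0.82, and without inflamed array 2 it was 4.22 (adjusted p for Sult1e1 = 0.00123). In the latter fit 4 members passed, as did 2202 of 14917 genes (14.8%). Those 4 members were Sult1e1, Sult5a1, Sult1b1 and Sult1c2. Sult2a6, not tested, differed by 3.50 ± 2.55 and by -0.69 and 7.69 without the normal and the inflamed array.

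On continuous NTBC, where 1 healthy Fah array stood against 1 normal FCR array, 4 of the 6 members measured on both differed by less than 1. Of the 6 members above background on both arrays, Sult5a1 at -1.84 and Sult1c2 at -1.41, both lower in Fah, differed by more than 1 on the log2 scale, as did 5.05% of 13095 genes measured on both. Sult1e1 differed by 0.08, Sult1b1 by -0.16, Sult1a1 by 0.65 and Sult1d1 by -0.74. There is no replicate check on these differences.

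Within the withdrawal groups, array 1 (off, slide 1) and array 2 (2xoff/on, slide 2) differ in regimen and slide together, which cannot be told apart. Sult2a6 was higher on array 1 by 2.12 in inflamed FCR liver and by 0.57 in tumour. Sult1e1 was higher on array 1 by 0.85 and 0.55, respectively. Sult5a1 and Sult1a1 were lower on array 1 in both groups, Sult5a1 by 1.17 in inflamed liver and 0.58 in tumour and Sult1a1 by 0.72 and 1.08. Sult1d1 was 1.28 higher on array 1 in inflamed liver and 0.16 lower in tumour. These are single pairs of arrays, and no test was made.

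The other measured Sult2a genes split according to their place on chromosome 7. Sult2a2 and Sult2a1, which lie between Sult2a5 and Sult2a4, had no named probe. Sult2a5, Sult2a4 and Sult2a3, which lie on 1 side of Sult2a6 in the RefSeq gene order, were not well above background on either array of continuous NTBC and were above it on all 4 others. Sult2a8 and Sult2a7, which lie on the far side, were higher on continuous NTBC than elsewhere. For Sult2a7 the difference of inflamed array 2 from normal FCR liver was only -0.48. The group has 9 members in RefSeq with a pseudogene among them, and 11 other annotated genes start between the first and the last. The files hold no probe sequences, so signal shared between these similar copies was not examined and the values of single Sult2a genes are uncertain to that extent.

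Sult2a3 was at -0.61 and -2.59 in tumour and at 1.67 and -1.36 in inflamed FCR liver, with both continuous arrays at or below -7.35. It rose in tumour by 5.75 ± 1.27 (SE) on the log2 scale, at least 11.5-fold (limma adjusted p = 0.0371). Sult2a4 was at -2.74 and -1.93 in tumour and at -0.28 and 0.50 in inflamed liver, and rose in tumour by 4.96 ± 0.78, at least 6.88-fold (limma adjusted p = 0.0119). Unlike Sult2a3, which was 1.98 and 3.03 higher on array 1, Sult2a4 was lower on array 1, by 0.80 in tumour and 0.78 in inflamed liver. Sult2a5 was at -2.39 and -4.36 in tumour and at -2.36 and -2.49 in inflamed liver. Its difference of 3.81 ± 0.98 in tumour, at least 3.36-fold, did not pass (limma adjusted p = 0.0624). The untested differences between inflamed and normal FCR liver were at least 50.6-fold for Sult2a3, 49.2-fold for Sult2a4 and 8.47-fold for Sult2a5. Like Sult2a6, these 3 genes met the filter on dim probes through the withdrawal arrays alone. Their tests set tumour against background signal in healthy liver, and with values floored at a common level no gene passed in that contrast.

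Sult2a8, a sulfotransferase of hepatic bile acids, showed the largest fall of the Sult genes measured. It was at 6.62 in healthy Fah and 6.67 in normal FCR liver, at 0.29 and -0.71 in tumour and at 2.63 and 1.54 in inflamed FCR liver. Tumours were lowest, inflamed livers intermediate and the continuous livers highest, with no overlap. In tumour it fell by 6.82 ± 0.70 (SE) on the log2 scale, 113-fold lower (limma adjusted p = 0.00369), and it was 24.0-fold lower in inflamed than in normal FCR liver, untested. Sult2a7 was at -0.37 in healthy liver and -4.35 and -4.25 in tumour, and fell by 3.93 ± 0.72 (limma adjusted p = 0.0195). In FCR mice Sult2a7 was at -0.05 in normal and -1.49 and -0.54 in inflamed liver, and its difference between tumour and inflamed liver was -3.28 ± 0.58 (limma adjusted p = 0.0776). Of the 7 other Sult genes tested, 2 thus passed higher and 2 lower in tumour, beside 3.91% and 1.13% of all genes. The 2 higher were Sult2a3 and Sult2a4, which met the filter on dim probes through the withdrawal arrays alone. Their count is therefore no support for a rise of the group. The median difference of the 7 genes from healthy liver was -1.20. Sult1c1 at -1.62 and Sult4a1 at -1.20 did not pass (adjusted p = 0.354 and 0.433). A dimmer Sult4a1 probe that was not used went the other way, at 1.96 and 2.08 above healthy liver in the tumours. It was not well above background in healthy liver.

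**Figure D3:**
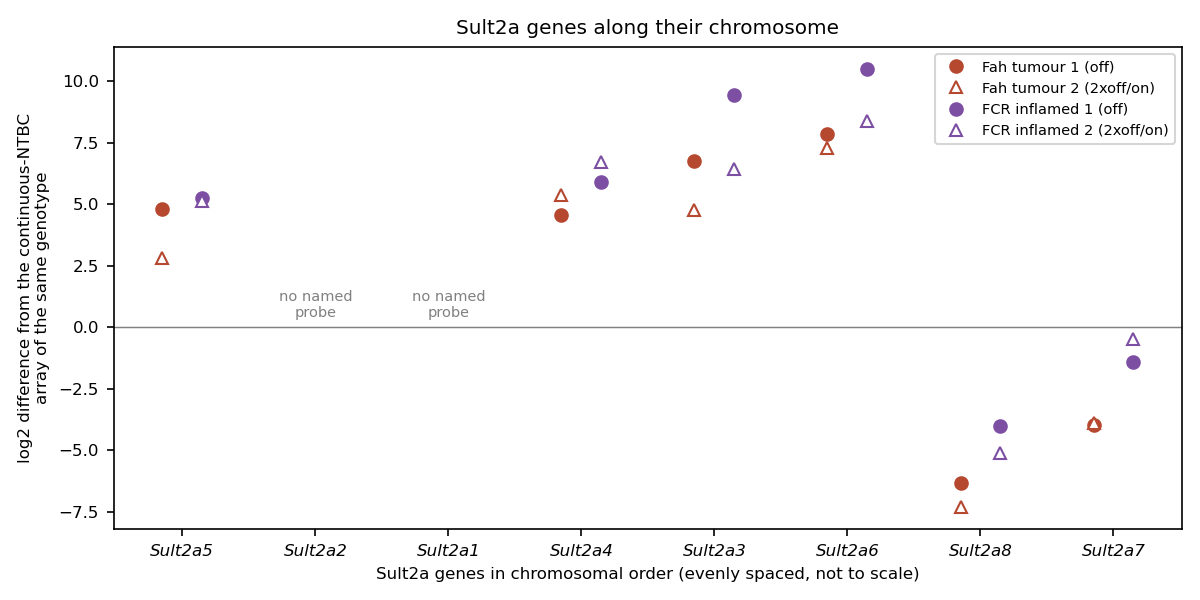
Log2 difference of each withdrawal array from the continuous-NTBC array of the same genotype (vertical axis) for the Sult2a genes in chromosomal order, evenly spaced (horizontal axis). Sult2a5, Sult2a4, Sult2a3 and Sult2a6 lie above 0 on all 4 arrays, and Sult2a8 and Sult2a7 lie below 0 on all 4.

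Among 49 genes whose promoter window held GTCATGAAC, 15 were tested. The motif was taken from the Sult2a windows, so Sult2a4, Sult2a5 and Sult2a6 are left out of the count. The other 12 had a median difference of 0.23 in tumour against healthy liver, beside -0.08 over all genes. Of these 12, 2 passed higher, beside 3.91% of all genes, namely Il1rl1 (at least 14.6-fold) and Epcam (4.22 on the log2 scale). Epcam is also among the cholangiocyte and progenitor markers. In inflamed against normal FCR liver the untested median of the 12 was 0.33, beside 0.04 over all genes. Il1rl1 stood at 0.33 there and Epcam at 3.33. Sult2a3, with no such motif in its window, was also higher in tumour. The part of the motif in any of these values was not tested.

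The 6-array profile of Sult2a6 was set against those of 15380 other genes by the root mean square difference after centring each gene on its mean. The closest were Krt20, a keratin of intestinal and urinary epithelium, at 0.79, Slc7a11, the cystine transporter, at 0.88, Sult2a3 at 0.92, Bmp8b, a bone morphogenetic protein, at 0.98, and Ly6d, a surface protein of the Ly6 family, at 1.04. The median over all genes was 4.13. Sult2a4 ranked 32, Sult1e1 42 and Sult2a5 82, whereas Sult5a1 ranked 15332 and Sult2a8 15374. All profiles share the same 6 arrays, among them those by which Sult2a6 was chosen. Sult2a6, Krt20, Slc7a11, Sult2a3 and Bmp8b were not well above background on the 2 arrays of continuous NTBC, so the distances rest in part on background values. With values floored at a common level Krt20 kept rank 1 (0.76), Ly6d ranked 3, Slc7a11 4, Bmp8b 13, Sult1e1 22, Sult2a3 44, Sult2a4 103 and Sult2a5 631.

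No gene that supplies the sulfonate donor passed the test. Of 8 tested genes for PAPS supply and removal of its product, 0 passed in tumour by limma, beside 5.05% of all genes. Their median difference from healthy liver was -0.60. The largest differences were -1.68 for Bpnt1, a phosphatase of the spent donor, and -0.93 for Slc26a1, a sulfate transporter. Of 12 genes leading from cysteine to sulfate, 0 passed and 11 were negative, with a median of -1.15. Csad, an enzyme of taurine synthesis, was at -2.38 (limma adjusted p = 0.0542), and Cdo1, cysteine dioxygenase, at -2.17 (adjusted p = 0.0690). In inflamed against normal FCR liver the medians of the 2 lists were -0.22 and -0.82, given without tests.

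Sulfatases, which remove sulfate, and the carbohydrate and tyrosyl sulfotransferases of the Golgi also had no member past the threshold. Their medians in tumour against healthy liver were -0.57 over 10 genes and -0.30 over 19 genes. Chst1, a keratan sulfate sulfotransferase, had the largest difference there, at least 9.81-fold (limma adjusted p = 0.0962).

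Of 14 measured glucuronosyltransferases, the other large conjugating family of the liver, 5 passed lower in tumour, beside 1.13% of all genes. All 14 differences were negative. Those that passed were Ugt3a1 (-4.92), Ugt3a2 (-4.85), Ugt2b1 (-4.75), Ugt2a3 (-2.84) and Ugt2b38 (-2.69), and the median was -2.45. In inflamed against normal FCR liver the median of the 14 was -0.54. Ugt2b1 and Ugt2b38 are also on the male-biased list given below, so the counts of these lists share genes. Among 9 efflux transporters of conjugates 0 passed in tumour by limma. Abcc1 stood at 2.71 (adjusted p = 0.0521) and Abcc6 at -4.60 (adjusted p = 0.0524), and in inflamed liver the untested differences were 3.70 for Abcc1, 3.19 for Abcc4 and -4.40 for Abcc6.

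Of 20 tested genes known to be higher in male mouse liver, 15 passed lower in tumour, beside 1.13% of all genes. All 20 differences were negative. Their median was -4.27, and Elovl3 (-10.86, above background in 1 of the 2 tumours), Hsd3b5 (-8.45) and Mup3 (-7.21) had the largest differences. Of 20 genes known to be higher in female liver, 4 passed higher, beside 3.91% of all genes. Differences were positive for 12 of 20, with a median of 2.06. Among the 4 were Prom1 (at least 48.0-fold), Cux2 (at least 5.38-fold) and Atp6v0d2 (at least 5.38-fold), none above background in healthy liver. In inflamed against normal FCR liver the medians were -2.79 for the male-biased and 1.37 for the female-biased list, untested, with all 20 male-biased genes negative. Their part in the Sult2a6 and Sult1e1 values was not tested, and the sources used here give no sex for the animals.

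Among 21 regulators of hepatic sulfotransferases, Cux2, a female-biased repressor, was the 1 that passed in tumour (limma adjusted p = 0.0253), beside 5.05% of all genes. Nr1i3, the receptor CAR, was at -2.40 (adjusted p = 0.0604). Vdr, the vitamin D receptor, was at least 6.02-fold higher in inflamed than in normal FCR liver, without a test. Of 18 targets of CAR and PXR, 1 passed in tumour, beside 5.05% of all genes, namely Cyp2c37 at -5.31. The list's median was -1.11.

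Of 13 genes of the bile acid response, 5 passed lower in tumour, beside 1.13% of all genes, and the list median was -1.91. The 5 were Cyp7b1 (-5.19), Cyp8b1 (-4.43), Slc10a1 (-3.54), Baat (-2.81) and Slc27a5 (-2.57). These are enzymes of bile acid synthesis and conjugation and an uptake carrier. Cyp7b1 and Cyp8b1 are also on the male-biased list, so the counts of these lists share genes. In inflamed liver Slc51b, an efflux carrier of bile acids, stood at 3.15 without a test. NRF2 targets had a median of -0.12 in tumour. There Slc7a11 (at least 34.3-fold higher) was the 1 of 23 that passed, beside 5.05% of all genes. In inflamed FCR liver their untested median was 1.60, with 21 of 23 positive. Slc7a11 stood at least 488-fold higher in inflamed liver, G6pdx at 4.54 and Srxn1 at 3.70 on the log2 scale. The motif TGACNNNGC, the core of the antioxidant response element, was in none of the available windows of the 17 Sult genes and in 12.4% of all windows, which says only that these letters are not in those windows.

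**Figure D4:**
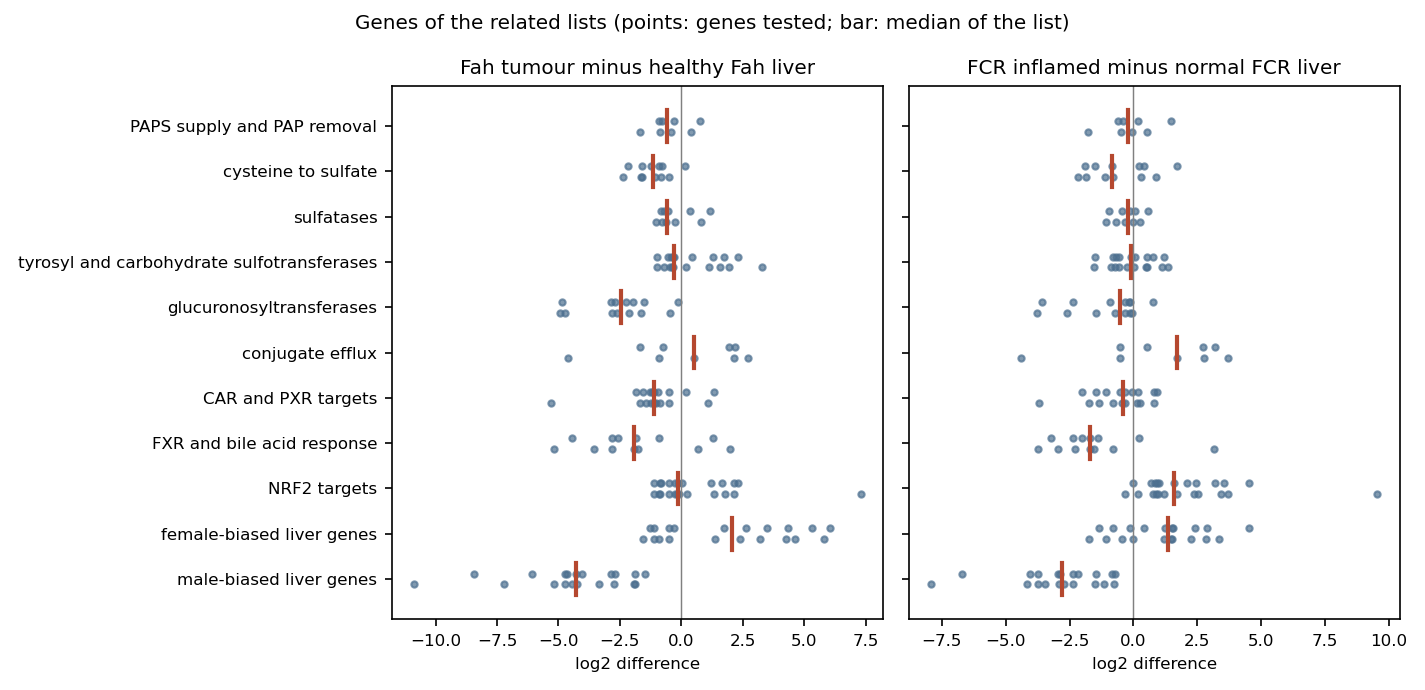
Log2 differences (horizontal axes) of the tested genes of 11 related lists (vertical axis), for Fah tumour minus healthy Fah liver and inflamed minus normal FCR liver, with the list median as a bar. The male-biased list lies wholly below 0 in both, at medians of -4.27 and -2.79, and the glucuronosyltransferases lie wholly below 0 in the first, at a median of -2.45.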

How the data were processed

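RNA of 6 liver samples was read on Agilent arrays. Per the file headers, Feature Extraction 10.7.3.1 produced a processed intensity per spot, background-subtracted and not normalized between arrays; the submitters' processing notes name version 10.5. A series table deposited by the authors holds log2 values with array medians of 6.46 to 6.48, which correlated with the log2 median signal at r = 0.996 to 0.999; the sources used here do not give the centring method. They served as an alternative.

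Control and outlier spots were left out, spots of a probe averaged, and the log2 processed signal was set against the array's 75th percentile. Unversioned accessions were looked up in RefSeq's GRCm38.p6 gene table, for names and gene order only: 26912 of 41145 probes were named, for 18342 genes, and 6535 genes had more than 1 probe, of which the probe with the highest mean over 6 arrays was used. The test, for genes measured above background on 2 or more arrays, was that of limma 3.58.1 under R 4.3.3 (lmFit, eBayes with trend, two-sided, Benjamini-Hochberg at 0.05), on 4 group means over 6 arrays with 2 residual degrees of freedom, or on the 4 arrays of the design text. The number of arrays limits the precision, and fits without 1 array or with slide as a block have fewer residual degrees of freedom. The steps were tested on simulated data.

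The members, gene lists, markers and tests were chosen with earlier results of these data known. All members were named, with up to 3 genes per list and contrast by absolute difference, those that passed where 5 or fewer did, and the 5 profiles most like Sult2a6. The alternatives are given with their effect in the closing section. Some genes that this rule names are left out here. Il1rl1 and Epcam were named after their values were seen.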

Additional observations from a re-analysis of the deposited data

How the results depend on the processing

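The count of 3 members past the threshold in tumour against healthy liver was 3 or 4 under the alternatives tried, and 3 to 4 when any withdrawal array was left out, except that it was 0 with values floored at a common level of -5.12. The share of all genes that passed moved from 5.05% to 1.71% with the authors' values, 16.3% with slide as a block, and 13.6% and 15.2% without inflamed array 1 and 2. In tumour against inflamed liver the count of 0 became 1 with normexp, the array median, slide as a block or regimen as a block, which also pairs healthy with normal liver, and was 0 to 2 without single arrays. The share of all genes, 0.215% at first, was then 1.25%, 0.514%, 6.31% and 0.312%, and 4.63% without inflamed array 2. In the design-text comparison the count was 0 to 4 without single arrays, with 14.8% of all genes passing where it was 4, and 0 otherwise; regimen as a block was not run there, having no residual degrees of freedom.

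Sign changes were few and the cause was not tested. Sult2b1, near background, turned to -0.15, -0.45 and -0.21 with normexp in the design-text, healthy and inflamed comparisons with tumour. Sult1d1 turned to -0.16 against healthy liver with the array median. Leaving out arrays gave -0.014 to 1.28 for Sult1a1 and -0.82 to 4.22 for Sult1e1 in the design-text comparison, and -0.19 to 0.89 for Sult1a1 against inflamed liver. The difference of Sult2a6 between tumour and healthy liver ran from 4.62 to 8.22 and passed in 14 of 15 alternatives, as did those of Sult1e1 (2.94 to 4.50) and Sult5a1 (-4.97 to -3.45). Dim signal limits Sult2b1 and the continuous-NTBC values of Sult2a6. Leaving out normal FCR liver and flooring the profiles compared with Sult2a6 were added after seeing the data.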
